A study of Mus musculus with 8 samples.

Results

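The interferon-induced transmembrane genes Ifitm1, Ifitm2, Ifitm3, Ifitm5 and Ifitm6 were followed across 8 Affymetrix mouse Gene ST 1.0 arrays of splenic macrophages. The 5 genes were chosen by symbol from the platform annotation, out of 19938 genes with a probe set of their own, and all 5 were measured. A gene with several probe sets was represented by the brightest of them, averaged over the 8 arrays. That mean was the only measured value in the choice of probe sets, and the 5 means ran from 7.02 for Ifitm6 to 8.41 for Ifitm3 on the log2 scale. The family itself was picked with earlier results of these arrays known, so its values are given as a description and no p-value below is independent support. All mice were wild-type male C57Bl/6j, 8 weeks of age. The 4 hemophagocyte arrays held cells from mice given 37.5 ug of CpG1826 and 200 ug of the antibody 1B1.3A, which blocks the IL-10 receptor, by intraperitoneal injection in 4 doses on alternate days. The 4 resting arrays held macrophages from mice given 200 uL of PBS on the same schedule. Hemophagocytes are macrophages that have engulfed blood cells, and CpG1826 is an oligonucleotide that stimulates Toll-like receptor 9. Cells were dissected by laser from touch preparations of the spleen, 20 per mouse, and pooled, per the labels' protocols. Non-engulfing macrophages of treated mice are not among the arrays, so engulfment and treatment cannot be told apart. The labels do not tie an array to its mice, so the spread between arrays may be partly technical.

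Ifitm proteins are small membrane proteins that share a CD225 domain. Ifitm1 sits mainly at the cell surface, and Ifitm2 and Ifitm3 sit mainly in endosomes and lysosomes, where they hinder the fusion of enveloped viruses with the host membrane. Interferons bind their receptors and activate STAT and IRF factors, which induce Ifitm3 and its relatives through interferon-stimulated response elements. Ifitm5 is known from bone-forming osteoblasts and is the member that interferon does not typically induce. Ifitm6 is known from cells of the myeloid lineage. In macrophages Ifitm3 belongs to the genes switched on by interferon.

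The 5 genes lie side by side on chromosome 7 of the mouse reference GRCm38.p6 within 67935 bases. Ifitm5 (chr7:140948958-140950243), Ifitm2 (chr7:140954837-140959686), Ifitm3 (chr7:141009590-141010744) and Ifitm6 (chr7:141015812-141016892) are on the minus strand. Ifitm1 (chr7:140967429-140969827) is on the plus strand. RefSeq promoter windows of 300 bases, 250 before to 50 from the start site, were at hand for all 5. The start site of the window is the outer edge of the annotated gene span for Ifitm3, Ifitm5 and Ifitm6, but lies 3725 bases inside the span for Ifitm2 and 647 bases inside for Ifitm1, whose spans reach further upstream. They were searched on both strands for 2 GAAA blocks in a row with 2 free bases between them, the core of an interferon-stimulated response element and called a paired GAAA motif here, and for TTCNNNGAA, that of a STAT site, which reads the same on both strands. Of 32851 mouse promoter windows of this length, 3.44% held the paired GAAA motif at least at 1 place and 0.225% at 2 or more, and 8.3% held TTCNNNGAA. Ifitm3 had 2 paired GAAA motifs, from base 3 to 12 and from base 20 to 29 counted from its start site, and Ifitm2 had 1, from base -46 to -37. Ifitm3 also had TTCTGAGAA from base 14 to 22, which overlaps the second match, and Ifitm6 had TTCCTTGAA from base -10 to -2. Ifitm1 and Ifitm5 had neither motif in the window. The windows of Ifitm2 and Ifitm3 shared CAGGAAAAGGAAA, the longest stretch of 13 bases in common between any pair of the 5. The first 280 bases are shown for Ifitm3, which had the largest difference between groups, for Ifitm2, the other gene with a match, and for Ifitm6, which was high on 1 array. They run 5′ to 3′ on the gene's strand, at chr7:141010715-141010994 for Ifitm3, chr7:140955932-140956211 for Ifitm2 and chr7:141016863-141017142 for Ifitm6, and the last 30 bases lie from the start site on. Capitals mark paired GAAA motifs, which are a description of the letters and not a measured site.
Ifitm3: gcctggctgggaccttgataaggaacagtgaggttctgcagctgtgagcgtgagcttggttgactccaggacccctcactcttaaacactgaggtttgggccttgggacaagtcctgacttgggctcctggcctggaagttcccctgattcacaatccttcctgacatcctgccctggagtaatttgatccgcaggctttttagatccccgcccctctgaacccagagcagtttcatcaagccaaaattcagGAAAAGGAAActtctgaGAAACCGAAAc
Ifitm2: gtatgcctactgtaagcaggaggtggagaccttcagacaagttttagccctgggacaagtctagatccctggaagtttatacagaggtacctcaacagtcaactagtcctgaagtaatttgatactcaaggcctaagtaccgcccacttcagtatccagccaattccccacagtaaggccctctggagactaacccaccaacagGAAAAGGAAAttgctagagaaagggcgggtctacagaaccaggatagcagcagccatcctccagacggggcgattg
Ifitm6: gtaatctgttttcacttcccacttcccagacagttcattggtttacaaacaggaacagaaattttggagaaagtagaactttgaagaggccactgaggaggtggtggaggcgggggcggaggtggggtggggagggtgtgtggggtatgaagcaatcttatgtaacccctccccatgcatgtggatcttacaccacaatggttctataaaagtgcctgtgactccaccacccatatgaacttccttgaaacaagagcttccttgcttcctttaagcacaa

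The deposited values were log2 values with array medians of 6.099 to 6.17 over all probe sets. As a guide to background, the 1194 olfactory and vomeronasal receptor genes had 95th percentiles of 7.42 to 7.81 on the 8 arrays, although probe sets respond unequally. Hemophagocytes 3 and 5 stood apart, where 154 and 159 genes exceeded their own median over all arrays by over 1 log2 unit, against 13 and 30 on hemophagocytes 2 and 6 and 7 to 16 on the resting arrays. Macrophage markers gave a list mean of 6.42 to 6.53 on the resting arrays and 6.47, 6.78, 7.21 and 6.51 on hemophagocytes 2, 3, 5 and 6. Of the 14 markers 9 had a difference above 0 and 0 passed, and Cd163 (-0.13), Spic (-0.10) and Csf1r (-0.09) were among those below 0. Those more than 1 log2 unit above every resting array numbered 0, 2, 4 and 0 on hemophagocytes 2, 3, 5 and 6. Markers above every resting array by any amount numbered 2, 7, 9 and 5 on the same arrays, against 21.4%, 14.4%, 14.8% and 15.4% of all genes. Markers below every resting array numbered 4, 4, 2 and 1, against 24.0%, 43.9%, 26.6% and 22.2% of all genes. The lysosomal marker Cd68 read 9.66 on hemophagocyte 3, 10.52 on hemophagocyte 5 and 7.21 to 7.50 elsewhere. Adgre1, which encodes the F4/80 antigen, lay between 5.53 and 5.89 on every array except hemophagocyte 5, where it was 7.38. By this guide these defining markers were not clearly above background on most arrays of either group. In pooled cells, fewer cells of a type and less RNA per cell cannot be told apart.

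Ifitm3, the endosomal member, was far higher on 3 hemophagocyte arrays than on any resting array and was at the resting level on the other. Its probe set 10569017 read 10.37, 10.65 and 11.46 on hemophagocytes 3, 5 and 6 and 6.65 on hemophagocyte 2. The resting arrays read 7.33, 7.33, 6.86 and 6.64 for replicates 3, 4, 5 and 6. The groups therefore overlapped through hemophagocyte 2 alone. The means were 9.78 ± 2.14 in hemophagocytes and 7.04 ± 0.35 in resting macrophages (log2, mean ± SD, n = 4 each), a difference of 2.74 with an SE of 0.81, or 6.69-fold. This was the fifth largest difference among 19938 genes but only number 121 in the order of p, and it did not pass (limma adjusted p = 0.747). A difference above 2 log2 units was found in 0.0652% of all genes. At least 3 hemophagocyte arrays above all resting arrays, as in Ifitm3, were found in 4.65% of all genes. On hemophagocyte 2 and the resting arrays Ifitm3 lay below the 95th percentiles of the receptor genes, so whether its transcript was detected there cannot be told. Without hemophagocyte 2 the difference was 3.79 with an SE of 0.25 and limma adjusted p = 6.2e-04, from a hemophagocyte mean of 10.82 ± 0.56 on 3 arrays. That array was singled out by its low value, so this p describes the remaining arrays and is no test of the groups.

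**Figure D1:**
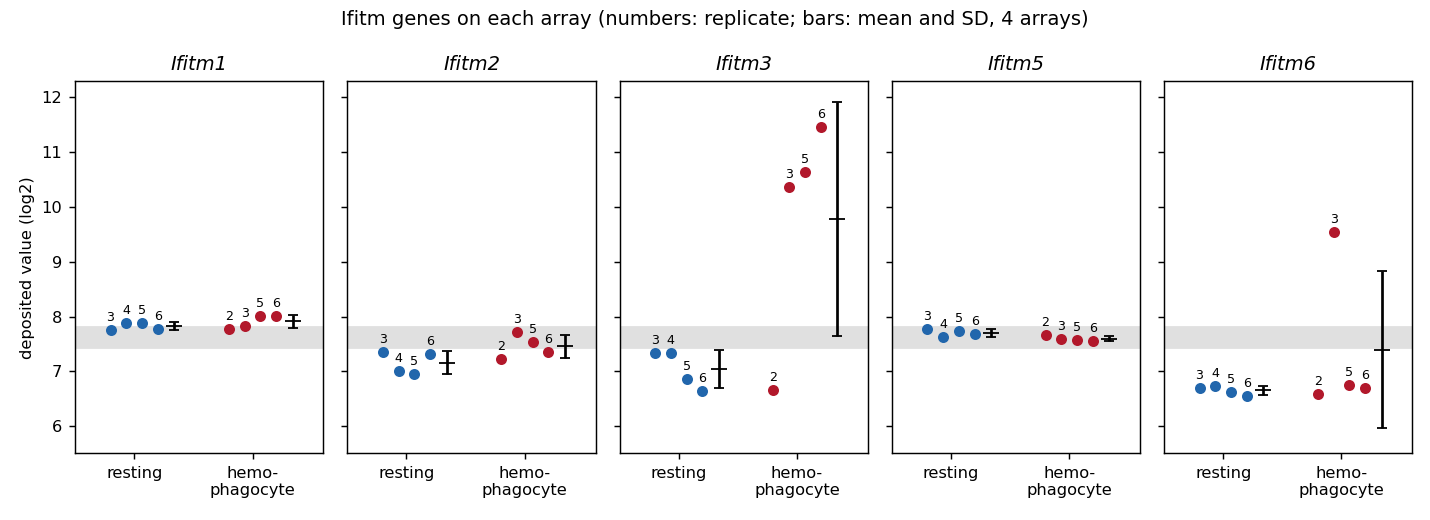
Deposited log2 values of the 5 Ifitm genes on each array, resting in blue and hemophagocyte in red, with replicate numbers, and the mean and SD of 4 arrays in black. The grey band spans the 95th percentiles of the receptor genes, 7.42 to 7.81, and 3 hemophagocyte arrays of Ifitm3 and 1 of Ifitm6 lie far above it.

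Ifitm6, the myeloid member, was high on a single array. Probe set 10569020 read 9.54 on hemophagocyte 3 and 6.59, 6.76 and 6.70 on hemophagocytes 2, 5 and 6. The resting arrays read 6.70, 6.74, 6.63 and 6.54 for replicates 3 to 6. Apart from hemophagocyte 3 the groups lay within the same narrow range. A single hemophagocyte array more than 1 log2 unit above all resting arrays was found in 0.823% of all genes. The means were 7.40 ± 1.43 and 6.65 ± 0.09, a difference of 0.75 with an SE of 0.54 that did not pass (limma adjusted p = 0.773). Without hemophagocyte 3 the difference was 0.03, and without hemophagocytes 3 and 5 together it was -0.0055. On hemophagocyte 3, 70 genes (0.351%) lay more than 1 log2 unit above every other array, against 62 on hemophagocyte 5 and 2 to 6 on each of the remaining arrays. Among the 105 interferon and Ifitm-related genes described below, Bst2 and Cxcl9 did so on hemophagocyte 3 and Trim30a on hemophagocyte 5.

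Ifitm2, the near relative of Ifitm3, differed far less between the groups. Probe set 10569014 read 7.23, 7.71, 7.54 and 7.36 on hemophagocytes 2, 3, 5 and 6 and 7.36, 7.001, 6.94 and 7.31 on resting arrays 3, 4, 5 and 6. Hemophagocytes 3 and 5 lay above every resting array, and the other hemophagocyte arrays lay within the resting range. The means were 7.46 ± 0.21 and 7.15 ± 0.21, and the difference of 0.31 (SE 0.13) did not pass (limma adjusted p = 0.747). Ifitm2 had 3 single-gene probe sets, and they disagreed on which arrays were high. Probe set 10383756 read 7.64 and 7.58 on hemophagocytes 5 and 6 and 7.43 on resting 4, with a difference of 0.14. Probe set 10553299 read 7.68 and 7.99 on hemophagocytes 5 and 6 and 6.50 on hemophagocyte 2, the lowest of the 8 arrays, with a difference of 0.27. Members of this family are close copies of each other, and whether a probe set also reads a relative's transcript was not tested.

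Ifitm1, the cell surface member, and Ifitm5, the osteoblast member, varied little between arrays. Ifitm1 (probe set 10558769) read 7.78, 7.83, 8.01 and 8.01 on hemophagocytes 2, 3, 5 and 6 and 7.75, 7.89, 7.87 and 7.76 on the resting arrays. Hemophagocytes 5 and 6 lay above every resting array. The difference of 0.09 (SE 0.08) did not pass (limma adjusted p = 0.807). The second probe set of Ifitm1 (10570434) ordered the hemophagocyte arrays much the same, from 6.56 on hemophagocyte 2 to 7.26 on hemophagocyte 5, with a difference of 0.13. Ifitm5 (probe set 10569011) read 7.65, 7.59, 7.58 and 7.55 on hemophagocytes 2, 3, 5 and 6 and 7.77, 7.62, 7.74 and 7.68 on the resting arrays. Hemophagocytes 3, 5 and 6 lay below every resting array, and hemophagocyte 2 lay within their range. The difference of -0.11 (SE 0.07) did not pass (limma adjusted p = 0.755). Of the 5 osteoblast markers measured, 0 passed and the list mean lay between 5.99 and 6.099 on all arrays.

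**Figure D2:**
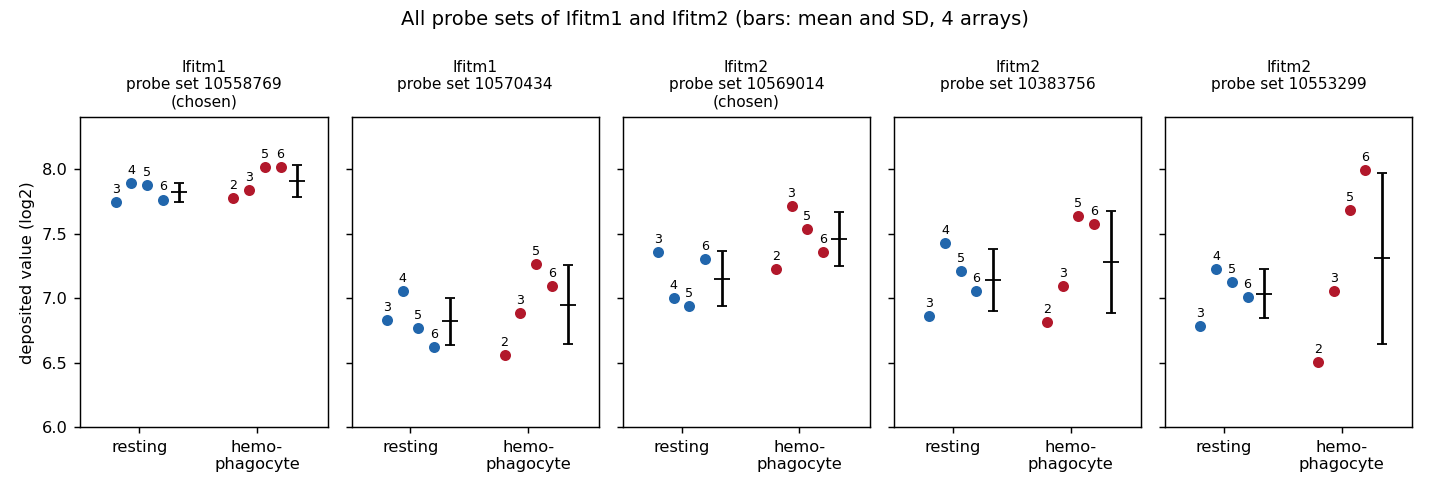
Deposited log2 values of every single-gene probe set of Ifitm1 and Ifitm2 on each array, with replicate numbers and the mean and SD of 4 arrays. Hemophagocytes 5 and 6 are the highest hemophagocyte arrays in both unchosen Ifitm2 probe sets, and hemophagocyte 3 is in the chosen probe set.

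Among the 5 genes, 4 had a difference above 0 and 1 below 0, and 0 passed the threshold of an adjusted p under 0.05 (limma), against 2 genes or 0.01% over all 19938. At an unadjusted p under 0.05, Ifitm2 and Ifitm3 were higher (1.53% of all genes were) and 0 members were lower. The unadjusted p of Ifitm2 (limma) was 0.035 as deposited and 0.027 to 0.031 under the 3 other normalizations. It was 0.15 with all probe sets averaged, 0.0995 without hemophagocyte 3 and 0.105 without resting 5, so its place here depended on the probe set and on single arrays. Groups that did not overlap were found in 0 of the 5 and in 3.71% of all genes, 0.802% higher and 2.9% lower in hemophagocytes. Over all genes 36.1% had a difference above 0, a share that went to 47.3% after quantile normalization, 47.1% after median centring and 50.7% after cyclic loess, and the same count of 4 of 5 members was found under each. Hemophagocyte 6 held the highest Ifitm1 and Ifitm3 values, hemophagocyte 3 the highest Ifitm2 and Ifitm6 values, and resting 3 the highest Ifitm5 value.

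Few genes stood as high as Ifitm3 on as many hemophagocyte arrays. Of all genes, 16 (0.0802%) had at least 3 hemophagocyte arrays more than 1 log2 unit above every resting array, and Ifitm3 was among them. The 3 arrays were not always those of Ifitm3. Atp5md read 8.88 on hemophagocyte 2 and 5.60 on hemophagocyte 6, against 5.48 to 5.76 at rest. Tomm7 read 7.93 on hemophagocyte 2 and 6.68 on hemophagocyte 3, against 6.02 to 6.27 at rest. In 10 of the 16, Ifitm3 included, hemophagocyte 2 was not above every resting array. In the other 6 it was, among them Gng5, a G protein gamma subunit, at 7.57 on hemophagocyte 2 against 5.87 to 6.16 at rest, and the calcium-binding protein S100a6, at 7.60 against 5.68 to 6.48. On hemophagocyte 2, Gng5 and S100a6 were above every resting array and Ifitm3 was not. Over all genes, 21.4% lay above every resting array there. The 16 genes were picked for high hemophagocyte arrays, hemophagocyte 2 among them, so these counts are a description. As a description with no test, the genes most like Ifitm3 over the 8 arrays were Rps10, a protein of the small ribosomal subunit (r = 0.98), Gpx1, a glutathione peroxidase that removes peroxides (r = 0.97), and Tmsb4x, the actin-binding thymosin beta 4 (r = 0.97). Rps10 read 7.87, 8.21 and 8.54 on hemophagocytes 3, 5 and 6, 7.09 on hemophagocyte 2 and 6.82 to 7.004 at rest. Tmsb4x read 10.64, 10.52 and 10.85 on hemophagocytes 3, 5 and 6, 7.77 on hemophagocyte 2 and 7.38 to 8.69 at rest. Gpx1 read 8.89, 8.45 and 9.91 on hemophagocytes 3, 5 and 6, 6.45 on hemophagocyte 2 and 6.47 to 6.92 at rest. On hemophagocyte 2, Rps10 was above every resting array, Tmsb4x was within the resting range and Gpx1 was just below it. None of the 3 passed (limma adjusted p = 0.747 for each), and they were chosen for their likeness to Ifitm3. When hemophagocyte 2 was left out, limma called 11 genes, all higher in hemophagocytes, and 9 of them were among the 16. Ifitm3 had the second smallest p of them after B2m, the light chain of class I molecules. Since that array was singled out by its low Ifitm3 value, this order is a description and no test.

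**Figure D3:**
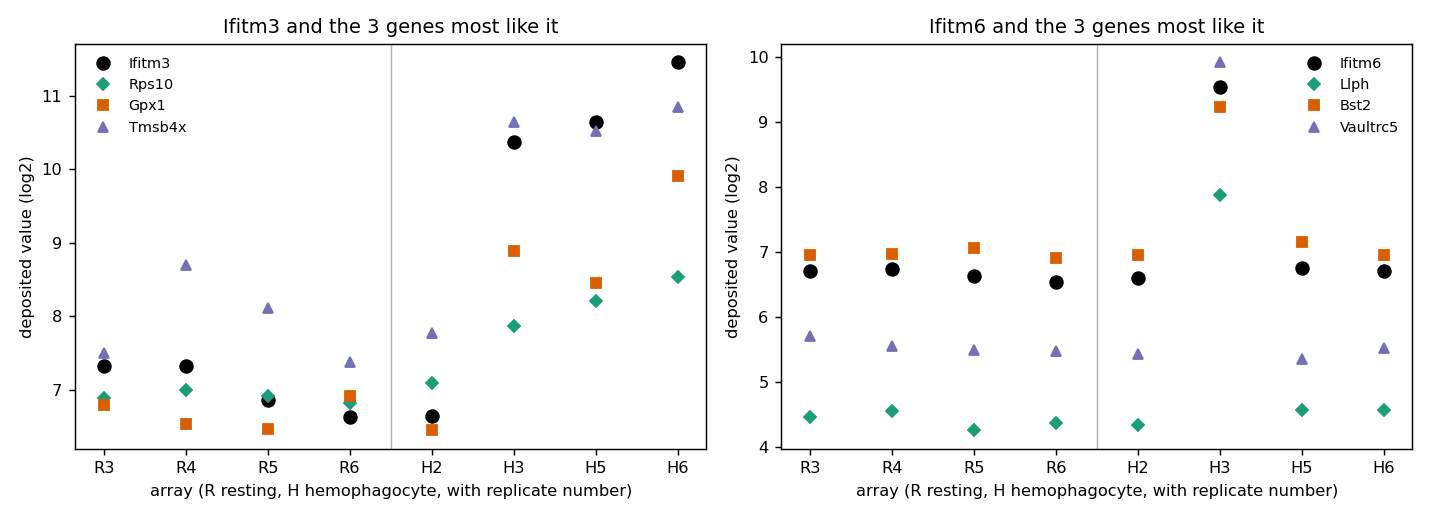
Deposited log2 values of Ifitm3 (left) and Ifitm6 (right) with the 3 genes of highest Pearson correlation over the 8 arrays. Ifitm3, Rps10, Gpx1 and Tmsb4x are high on hemophagocytes 3, 5 and 6, and Ifitm6, Llph, Bst2 and Vaultrc5 on hemophagocyte 3 alone.

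The genes most like Ifitm6 were Llph, Bst2 and the vault RNA Vaultrc5, with r of 0.998, 0.997 and 0.996, and each high on hemophagocyte 3 only. Bst2, the tetherin that holds budding viruses at the membrane, read 9.23 on hemophagocyte 3 and 6.91 to 7.14 on every other array. Without hemophagocyte 3 the correlations with Ifitm6 were 0.81 for Llph, 0.53 for Bst2 and 0.14 for Vaultrc5. Ifitm1 was most like Nacc1, Usp1 and Clec12a (r = 0.95, 0.94 and 0.94), Ifitm2 most like Zfp335, Mylk and Rasl12 (r = 0.96, 0.93 and 0.93), and Ifitm5 most like Cdh6, Bcl11b and Gosr1 (r = 0.96, 0.95 and 0.95). These are the highest among the 19938 genes once some kinds of symbol, given with the processing, were passed over. The 8 arrays share their processing, and the correlations carry no test.

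The interferon genes around the family were taken from lists of ligands, receptors and signalling, and effectors, and with the membrane factors, partners, relatives and neighbours below they made up 105 genes. Of the 105, 0 passed (limma), 9 were higher at an unadjusted p under 0.05 (8.57%, against 1.53% of all genes) and 4 were lower (3.81%, against 5.05%). Groups did not overlap in 4 genes, all higher in hemophagocytes (3.81%, against 0.802% of all genes in that direction). These shares were not tested. After quantile, median or cyclic loess normalization 47.3%, 47.1% and 50.7% of all genes lay above 0. Members above 0 then numbered 2 to 7 of 13 in ligands and 4 of 7 in relatives outside the cluster. They numbered 13 of 14 in receptors and signalling, 17 to 19 of 24 in type I effectors and 10 of 14 in interferon gamma effectors. The remaining lists had 5 of 8 in antiviral membrane factors, 9 of 14 in partners and 9 to 10 of 12 in neighbours.

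Interferon ligands showed no member that passed, and 12 of 13 measured had differences below 0, with a median of -0.04, the same as the median of -0.04 over all genes. The count of members above 0 was 1 as deposited, where 36.1% of all genes were above 0. It was 2 after quantile normalization, 3 after median centring and 7 after cyclic loess. The ligands' medians under these 3 were -0.074, -0.010 and 0.007, against -0.007, -0.008 and 0.002 over all genes. Ifnb1, the beta interferon, read 4.37 to 4.74 on the hemophagocyte arrays and 4.603 to 4.92 on the resting arrays, and its difference of -0.17 did not pass. Ifna12 and Ifna11 (both -0.28), Ifnk (-0.38) and Ifna13 (-0.24) were the other ligands named by the order of p, and of these Ifna12 and Ifna11 had an unadjusted p under 0.05. Ifng, the gamma interferon made by T and NK cells, had a difference of -0.03. In receptors and signalling 11 of 14 members lay above 0 with a median of 0.03. Ifnar2, a chain of the type I receptor, read 5.68, 5.72, 6.53 and 5.56 on hemophagocytes 2, 3, 5 and 6 and 5.18 to 5.67 at rest. Its highest value was on hemophagocyte 5, and the difference of 0.50 (SE 0.19) did not pass (limma adjusted p = 0.747). Irf7, the factor that amplifies type I interferon, read 6.40, 6.84, 7.50 and 6.60 on the same arrays and 6.26 to 6.50 at rest, a difference of 0.44 that did not pass. Without hemophagocyte 5 the differences were 0.28 for Ifnar2 and 0.22 for Irf7. Ifnar1, the other chain of that receptor (0.09), Stat2 (0.098) and Ifngr2 (-0.09) did not pass.

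Type I effectors lay above 0 in 13 of 24 genes, with a median of 0.04 and 0 past the threshold. Oasl1, a relative of the 2′-5′ oligoadenylate synthetases, read 7.68, 7.64, 7.30 and 7.36 on hemophagocytes 2, 3, 5 and 6 and 7.05 to 7.27 at rest. It was the only gene of this list whose groups did not overlap, and its difference of 0.28 (SE 0.10) did not pass (limma adjusted p = 0.747). Rtp4, an interferon-induced chaperone, had a difference of 0.36 and Ifi27l2a one of 0.55, and without hemophagocyte 5 these were 0.23 and 0.27. Usp18, which restrains interferon signalling, had a difference of -0.20 and Xaf1 one of -0.14. The mean level of the list was 6.18, 6.15, 6.51 and 6.25 on hemophagocytes 2, 3, 5 and 6 and 6.17 to 6.23 at rest. Of the 24 genes, 9 had their highest value on hemophagocyte 5 and 4 on hemophagocyte 6, where Ifitm3 was highest. Members above every resting array numbered 5, 4, 12 and 8 of 24 on hemophagocytes 2, 3, 5 and 6, against 21.4%, 14.4%, 14.8% and 15.4% of all genes.

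Interferon gamma effectors lay above 0 in 8 of 14 genes with a median of 0.09, and 0 passed. Members above every resting array numbered 7, 7, 5 and 8 of 14 on hemophagocytes 2, 3, 5 and 6. Of all genes, 21.4%, 14.4%, 14.8% and 15.4% did so. Members below every resting array numbered 3, 5, 1 and 3, against 24.0%, 43.9%, 26.6% and 22.2% of all genes. These counts were not tested. Psmb8, a catalytic subunit of the immunoproteasome, read 6.54, 7.14, 7.12 and 6.77 on hemophagocytes 2, 3, 5 and 6 and 6.28 to 6.53 at rest. Its groups did not overlap, the difference was 0.47 (SE 0.13), and it did not pass (limma adjusted p = 0.747). Psmb10, a second such subunit, also had groups that did not overlap, with a difference of 0.38 that was 0.23 without resting 5. Gbp7, a guanylate-binding protein (0.21), Psmb9 (0.14) and Cxcl9 (0.53) did not pass. Cxcl9, a chemokine that draws T cells, read 8.95 on hemophagocyte 3 and 6.90 to 7.17 on all other arrays, and without hemophagocyte 3 its difference was 0.08.

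**Figure D4:**
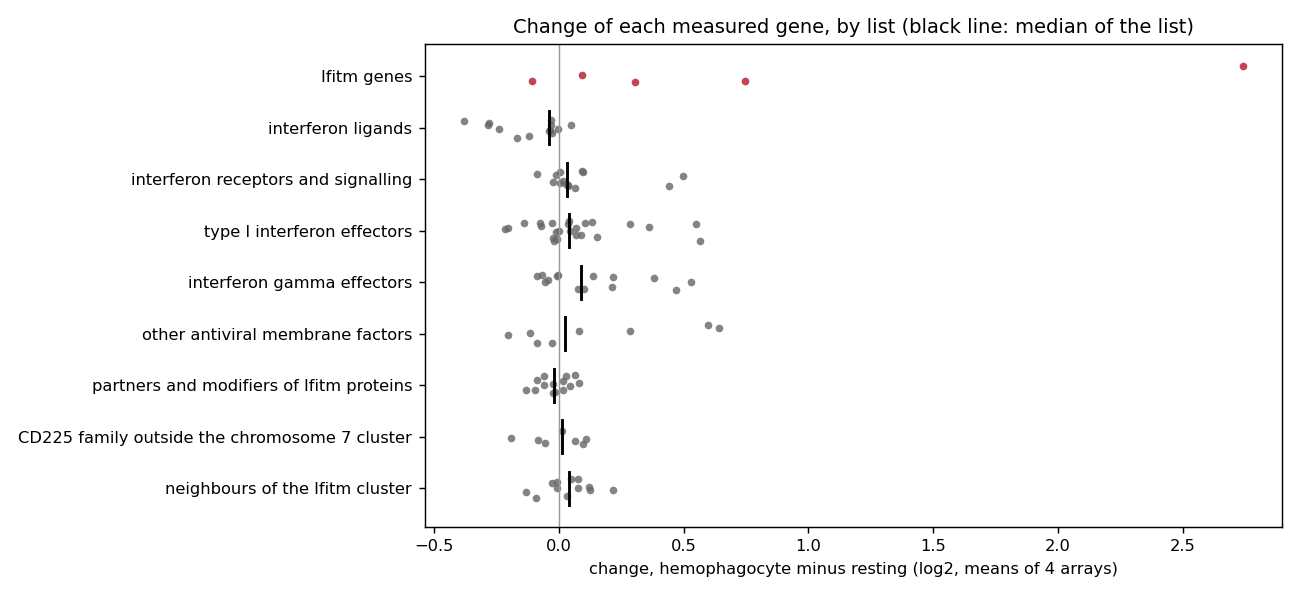
Difference between groups in log2 units for each measured gene, hemophagocyte minus resting, with the 5 Ifitm genes in red, the 8 related lists in grey and a black line at each list's median. Ifitm3 lies at 2.74, while the genes of the 8 lists lie between -0.38 and 0.64.

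Other antiviral membrane factors lay above 0 in 4 of 8 genes. Ly6e, a surface protein anchored by a lipid that alters virus entry, read 6.07, 6.60, 7.20 and 6.104 on hemophagocytes 2, 3, 5 and 6 and 5.67 to 6.05 at rest. Its groups did not overlap, and the difference of 0.64 (SE 0.22), the largest in the 8 lists, did not pass (limma adjusted p = 0.747) and was 0.40 without hemophagocyte 5. Bst2 had a difference of 0.60, or 0.04 without hemophagocyte 3, and Ch25h, which makes an antiviral oxysterol, one of 0.29, or 0.01 without hemophagocyte 5. Serinc5 (-0.20) and Serinc3 (-0.12), which lower the infectivity of retroviruses, had lower values that did not pass. Partners and modifiers of Ifitm proteins lay above 0 in 6 of 14 genes, with differences from -0.13 to 0.08 and a median of -0.02 that turned to 0.01 to 0.02 after the 3 other normalizations, and 0 at an unadjusted p under 0.05. The tetraspanins Cd81 and Cd9 both stood at -0.09, the complement receptor Cr2 at -0.13, the kinase Fyn at -0.06 and the protease Zmpste24 at 0.08.

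Relatives of the family outside the chromosome 7 cluster lay above 0 in 4 of 7 genes, between -0.19 for Syndig1 and 0.11 for Tmem91, and 0 passed. Ifitm7 stood at -0.08 and read 7.42 to 7.78 in hemophagocytes and 7.48 to 7.88 at rest. Genes that neighbour the cluster lay above 0 in 7 of 12, between -0.13 for Ptdss2 and 0.22 for Rnh1, an inhibitor of ribonucleases, and 0 passed. Pgghg (0.12), Psmd13, a proteasome subunit (0.12), and Sirt3, a mitochondrial deacetylase (-0.09), were the other neighbours named by the order of p, and none had an unadjusted p under 0.05. The neighbours' differences lay far below the 2.74 of Ifitm3, and this contrast was not tested.

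Markers of other cells that the pools could hold were set beside Ifitm3 and Ifitm6. In the 12 neutrophil markers the list mean was 6.24, 6.62, 6.35 and 6.38 on hemophagocytes 2, 3, 5 and 6 and 6.21 to 6.29 at rest, with 5 of 12 above 0 and 0 passing. S100a8, a calprotectin subunit of neutrophils and monocytes, read 8.02 on hemophagocyte 3, where Ifitm6 was high, 6.41 on hemophagocyte 5, 5.12 on hemophagocyte 6 and 4.86 to 5.02 at rest. S100a9, the other subunit, read 9.12 on hemophagocyte 3, 6.01 on hemophagocyte 5, 7.33 on hemophagocyte 6, where Ifitm3 was highest, and 6.12 to 6.34 at rest. On hemophagocyte 3, 2 of the 12 neutrophil markers (S100a8 and S100a9) lay above every resting array, 4 lay within the resting range and 6 lay below it, among them Ly6g (5.25) and Mpo (7.05). Of all genes, 14.4% lay above and 43.9% below every resting array there. In the 8 monocyte markers the list mean was 6.17 to 6.48 in hemophagocytes and 6.22 to 6.28 at rest, with 2 of 8 above 0. Pf4, a platelet chemokine, read 10.35 and 9.11 on hemophagocytes 3 and 5 and 5.49 to 7.41 elsewhere. Pf4 was lowest, at 5.49, on hemophagocyte 6, where Ifitm3 was highest. Of the 7 platelet markers measured, 3 lay above 0, with a median difference of -0.0165 and 0 passing. Ppbp (-0.20) and Treml1 (-0.11) were among those below 0. On hemophagocyte 3, 2 platelet markers lay above every resting array and 3 below, and on hemophagocyte 5, 2 above and 2 below. The NK cell list mean was 5.61 to 5.91 in hemophagocytes and 5.95 to 6.00 at rest. The stromal list mean was likewise lower, at 6.32 to 6.44 against 6.45 to 6.47. The mean of the receptor genes, the guide to background, was 5.75 to 6.07 in hemophagocytes and 5.99 to 6.16 at rest. The lists of endothelial, stromal, T cell, B cell, plasma cell, erythroid and dendritic cell markers had median differences between -0.13 and -0.0062 and 0 members that passed. The part of other cells in the Ifitm3 and Ifitm6 values was not tested.

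**Figure D5:**
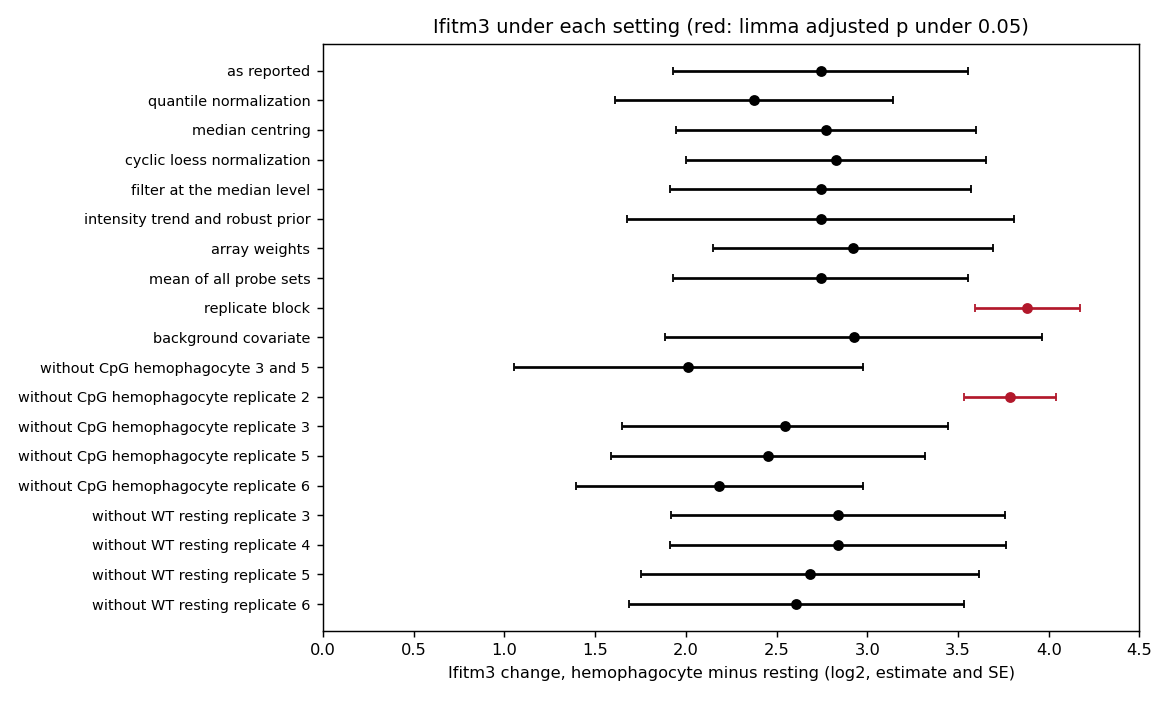
Difference of Ifitm3 between groups with its SE, in log2 units, as reported and under the 18 other settings, in red where limma's adjusted p was under 0.05. The estimates lie between 2.01 and 3.88, and the red ones are those without hemophagocyte 2 and with the replicate number as a block.

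The Ifitm3 difference stayed above 2 log2 units in all 18 other settings and passed in 2 of them. These were the fit without hemophagocyte 2 and the fit with the replicate number as a block, in which hemophagocyte 2 and resting 4 add nothing because their numbers occur in 1 group only. Without hemophagocytes 3 and 5 the difference was 2.01 (limma adjusted p = 0.963).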

How the data were processed

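The authors deposited log2 values, 1 per probe set and array, for 35556 probe sets of the Affymetrix mouse Gene ST 1.0 array. The log2 scale was judged from their range of 1.81 to 12.77. The submitters' processing notes name Expression Console 1.1; the background correction, probe summary and normalization are not stated there. Values were used without further scaling. Arrays have no read depth, and 4 per group limit the precision. RNA was amplified from few cells, which can drop or overstate transcripts.

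The platform annotation gave 1 symbol to 21789 probe sets, several to 1621 and none to 12146; the latter kinds were left out. This left 19938 genes, and 999 had several probe sets. RefSeq tables of GRCm38.p6 gave positions and promoters, since no source used here gives the array's own build.

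Groups and replicate numbers came from the sample titles. Hemophagocyte minus resting differences came from limma 3.58.1 (lmFit, eBayes, no block; R 4.3.3). P-values were adjusted by Benjamini-Hochberg across the 19938 genes, with calls under 0.05. The script was tested on simulated data. Related genes were described in 8 lists, with no set test. Up to 5 members per list were named by smallest p, and 3 genes per Ifitm gene by highest Pearson correlation. In the correlations pseudogenes, predicted genes, microRNAs, sensory receptors and Ifitm genes were passed over. So were Riken symbols, accession-style symbols and symbols that start with a digit. Members and lists were chosen with earlier results of these data known. Alternatives were other normalizations, a filter at the median level, a trended robust prior, array weights, all probe sets averaged, a background covariate, a replicate block and arrays left out.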

Additional observations from a re-analysis of the deposited data

Results flagged for a closer look

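Of 90 groups of 4 arrays tested for a single far value (the 5 Ifitm genes and the 40 list genes named by p), 10 had one. Chance gives about 1 in 20 for independent groups, but the 40 genes were named by p and the groups share 8 arrays. The 10 can therefore not be weighed against that rate. Among the Ifitm genes the far value was that of Ifitm6 on hemophagocyte 3, at 9.54 with the next array at 6.76. Hemophagocyte 3 also held high values of Cxcl9 (8.95) and Bst2 (9.23) and a low value of Cr2 (5.68). Hemophagocyte 5 held high values of Ifnar2 (6.53) and Ch25h (6.59). On the resting arrays, Stat2 was high on replicate 3 (6.68), and on replicate 5 Serinc5 was high (7.09) and Oasl1 (7.05) and Cxcl9 (6.90) were low. In Ifitm3 the low value of hemophagocyte 2 did not meet the same criterion, since the other 3 arrays spread over more than 1 log2 unit.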

How the results depend on the processing

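As deposited, 0 of 5 Ifitm genes and 2 of all genes were called. With the replicate block 1 Ifitm gene (Ifitm3, difference 3.88, limma adjusted p = 0.028) and 7 genes were called. Leaving out 1 array at a time gave 0 to 1 Ifitm genes and 1 to 11 genes, and the Ifitm3 difference ran from 2.18 to 3.79, with a call only without hemophagocyte 2. Median centring, cyclic loess, the trended robust prior and the background covariate called 1 gene each. Deviations of arrays with the same number correlated at 0.17, 0.07 and 0.12 for numbers 3, 5 and 6. Not every array correlated best with its own number, so the numbers are not taken as pairs. The Ifitm6 difference turned to -0.33 with the background covariate and -0.0055 without hemophagocytes 3 and 5; the first cause was not tested. Differences of Ifitm1, Ifitm2, Ifitm3 and Ifitm5 kept their direction in all 18 settings. Of 705 values of 40 named list genes, 11 turned. With the background covariate these were Ifna13 (0.0775), Cxcl9 (-0.17), Bst2 (-0.22), Serinc3 (0.0187), Cr2 (0.0291), Syndig1l (-0.0736) and Prrt1 (-0.0106). Without hemophagocytes 3 and 5 they were Bst2 (-0.0231), Serinc3 (0.0154) and Pgghg (-0.0165), and with the replicate block Syndig1l (-0.0018). None of these genes was called under any of the settings. Values near the range of the receptor genes limit what can be read of Ifitm1, Ifitm2, Ifitm5 and Ifitm6 on most arrays. Ifitm1 and Ifitm5 lay at the upper end of that range, above 94.7% to 98.5% and 92.3% to 96.8% of these genes. Ifitm2 lay above 72.8% to 98.1% of them. Ifitm6 was the dimmest, above 57.9% to 70.3% at rest, and above 99.9% on hemophagocyte 3.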
